A study of Mus musculus with 2 samples.

Results

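The NR4A nuclear receptors Nr4a1 (Nur77), Nr4a2 (Nurr1) and Nr4a3 (Nor1) and the cysteine- and serine-rich nuclear proteins Csrnp1 (older symbol Axud1), Csrnp2 and Csrnp3 were examined in HT22 cells exposed to J147. They were taken by name, as all probe sets that the array annotation assigns to these 6 genes, which gave 16 of 45037 probe sets and 6 of 18193 annotated genes. HT22 is an immortalised nerve cell line of mouse hippocampal origin, and J147 is a neurotrophic compound developed against Alzheimer's disease. The 2 groups were HT22 cells exposed for 1 h to J147 and HT22 cells exposed for 1 h to the DMSO vehicle alone, both plated the day before in medium with 10% fetal calf serum. There was 1 Affymetrix mouse genome GeneChip per group. No difference can therefore be checked against replicates or given a p-value, and a response to J147 and other differences between the 2 cultures cannot be told apart. The dose is 10 μM in the study's methods and 10 mM in the sample labels. The title of the vehicle sample names DMSO, while its treatment label reads untreated. Fewer cells expressing a gene and less RNA of it per cell also cannot be told apart.

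The NR4A proteins are orphan nuclear receptors that act without a known obligatory ligand, so their activity follows mainly from how much of them is made. Their genes are immediate early genes, transcribed within minutes of a growth factor, calcium or cAMP signal through CREB, MEF2 and SRF. In the hippocampus they are induced by neuronal activity and are known for a part in long-term memory, and Nr4a2 is needed for the identity of midbrain dopaminergic neurons. They bind DNA alone at the NBRE element, and Nr4a1 and Nr4a2 also pair with the retinoid X receptors. The CSRNP proteins are nuclear DNA-binding factors, of which CSRNP1 was first described in human cells as a gene induced by AXIN1, a scaffold of Wnt signalling.

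The sequences just before the start sites of the NR4A genes and of Csrnp1 are shown because CREB binds the CRE element, whose half-site TGACG recurs in them. Each runs for 250 bases up to the base before an annotated start site, on the strand of the gene, from RefSeq on GRCm38.p6, with every TGACG on either strand in capitals (CGTCA where it lies on the opposite strand). All 6 genes had an entry. Csrnp1 has 4 annotated start sites there, numbered from the most upstream, and the window of the third is printed because it holds the most half-sites of the 4.
Nr4a1, chr15:101266596-101266845, plus strand: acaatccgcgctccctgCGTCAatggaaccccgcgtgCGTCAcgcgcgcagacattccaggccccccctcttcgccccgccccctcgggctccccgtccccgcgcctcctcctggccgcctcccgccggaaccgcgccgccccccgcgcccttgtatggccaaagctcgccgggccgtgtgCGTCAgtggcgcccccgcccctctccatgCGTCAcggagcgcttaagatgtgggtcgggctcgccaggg
Nr4a2, chr2:57124004-57124253, minus strand: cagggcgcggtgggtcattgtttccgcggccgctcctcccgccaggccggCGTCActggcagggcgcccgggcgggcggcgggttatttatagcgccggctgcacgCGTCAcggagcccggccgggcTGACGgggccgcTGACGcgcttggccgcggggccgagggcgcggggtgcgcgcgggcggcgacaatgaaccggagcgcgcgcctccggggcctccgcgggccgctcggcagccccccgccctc
Nr4a3, chr4:48045055-48045304, plus strand: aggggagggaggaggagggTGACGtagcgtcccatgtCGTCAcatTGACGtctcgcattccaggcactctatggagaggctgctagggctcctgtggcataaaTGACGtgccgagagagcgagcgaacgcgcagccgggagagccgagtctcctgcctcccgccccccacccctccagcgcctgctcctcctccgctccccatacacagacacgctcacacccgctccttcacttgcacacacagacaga
Csrnp1, start site 3, chr9:119983780-119984029, minus strand: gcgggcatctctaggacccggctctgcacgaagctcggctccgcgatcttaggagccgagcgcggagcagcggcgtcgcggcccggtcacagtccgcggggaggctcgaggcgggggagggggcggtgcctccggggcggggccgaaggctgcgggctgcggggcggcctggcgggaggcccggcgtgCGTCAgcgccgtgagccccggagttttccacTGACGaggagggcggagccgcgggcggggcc

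Each of the 3 NR4A windows held 4 half-sites, a number that 45 of all 32851 windows of this length (0.137%) held or passed. The NR4A windows are among the 45, and the half-site was picked because it recurs in them. All windows were taken without matching for base composition, so the share is a description and enrichment was not tested. At least 1 half-site was found in 17.8% of all windows and at least 2 in 3.90%. The Csrnp1 windows held 1, 1, 2 and 1 half-sites from the first to the fourth start site, while the Csrnp2 window and both Csrnp3 windows held 0. In Nr4a1 the half-sites fell in a pair at -233 and -213 and another at -69 and -40, counted from the start site to the first base of each match. In Nr4a2 they began at -200, -144, -123 and -111, and in Nr4a3 at -231, -213, -205 and -147. The full CRE TGACGTCA, which would count as 2 overlapping half-sites, was in no window of the 6 genes and in 1.55% of all windows.

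Other motifs were searched on both strands in the same windows. The EGR motif GCGNGGGCG occurred once each before Nr4a1 and Nr4a2, against 4.70% of all windows with at least 1. The AP-1 motif TGANTCA occurred at 2 places before the fourth start site of Csrnp1 and in 6.75% of all windows, and it shares no base with the half-site found there. The TATA motif TATAAA was found only before Nr4a2 among the 6 genes, against 12.4% of all windows. That match lay on the opposite strand, from -164 to -159. Neither the CArG box, bound by SRF (1.47% of all windows), nor the NBRE motif AAAGGTCA (1.34%) was matched in any window of the 6 genes, which says only that these letters are not there. A match describes the sequence and no binding was measured.

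**Figure D1:**
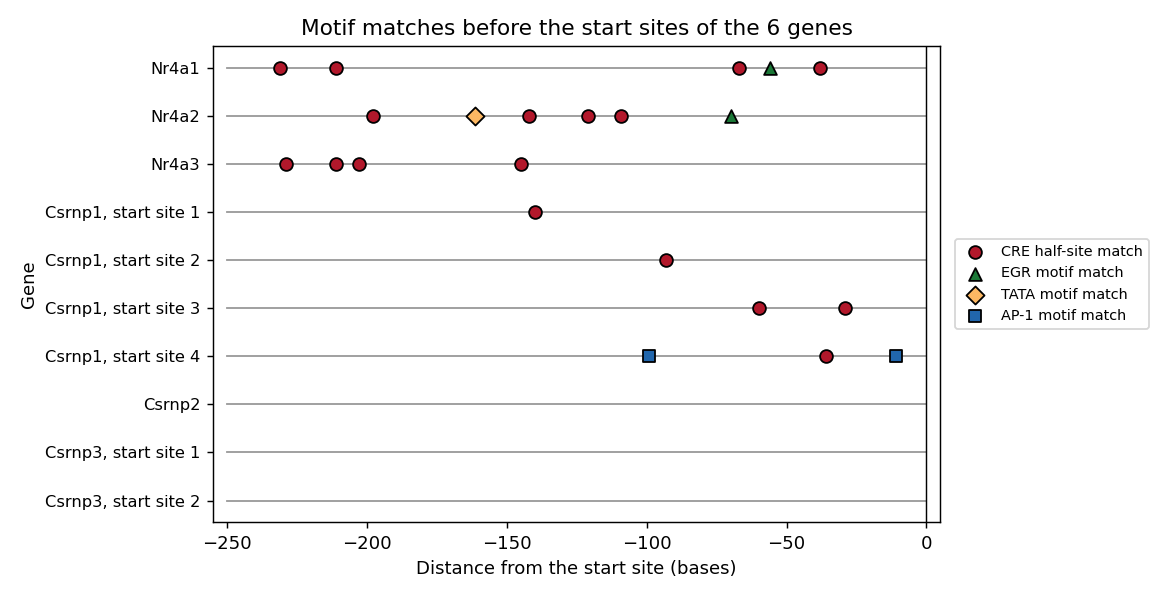
Position of motif matches (symbols, on either strand) in the 250 bases before each annotated start site (horizontal axis, distance in bases) of the 6 genes (vertical axis, 1 line per start site). The 3 NR4A genes hold 4 CRE half-sites each, Csrnp1 holds 1 or 2 per start site, and Csrnp2 and Csrnp3 hold none.

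Of the 16 probe sets, 8 were scored and 8 lay at the lowest value of the deposited table on both arrays. Scored means a mean above 100 over both arrays, with the median intensity of each array set to 100, the cut-off of the study's methods. The lowest value, 2.23 on the deposited log2 scale, holds 46.0% of probe sets on the J147 array and 46.3% on the vehicle array, and values there have no order and hide any change. On the scaled intensities it is 95.1 on the J147 array and 95.4 on the vehicle array, just below the cut-off of 100. A scored probe set just above the cut-off can therefore hide a change too. The 4 genes with a scored probe set were Nr4a1, Nr4a2, Csrnp1 and Csrnp2, and each of their scored probe sets was above the lowest value on both arrays. The brightest probe set stood for its gene, which gave 10611 scored genes in all. Most genes were alike on the arrays, with an SD of the log2 difference of 0.18 over 22545 scored probe sets. Of these probe sets 18.9% had identical deposited values on both arrays, which narrows that SD. The SDs among neighbours given below were not computed without such probe sets. Of 8 neuronal markers 2 were scored, Tubb3 and Syp, and of 7 fibroblast markers all 7 were. Syp was close to the lowest value, with 134 on the J147 array and 135 on the vehicle array. Defining neuronal genes such as Map2, Snap25 and Rbfox3 were not scored in this line. Of the other marker lists, 2 of 7 astrocyte, 2 of 6 microglia, 0 of 5 oligodendrocyte and 0 of 5 endothelial genes were scored. The median log2 difference, J147 minus vehicle, of control probe sets was 0.13 for hybridization spikes, -0.15 for labelling spikes and -0.63 for 18S rRNA, and their part in the results was not tested.

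Nr4a1 and Csrnp1 were higher on the J147 array, Nr4a2 and Csrnp2 differed little, and Nr4a3 and Csrnp3 were listed at the lowest value throughout. Thus 1 member of each family stood higher with J147, Nr4a1 by 1.72-fold and Csrnp1 by 1.95-fold. At a threshold of 1.5-fold, 2 of the 4 scored genes lay higher with J147 and 0 lay lower, where 0.556% of all scored genes were higher and 0.81% lower by as much. None of the 4 reached 2-fold in either direction, which 0.066% of all scored genes did upward and 0.0754% downward. The counts describe these 4 genes only.

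Csrnp1 had the largest difference of the members. By probe set 1434350_at the scaled intensity was 1891 on the J147 array and 970 on the vehicle array, a log2 difference of 0.96. That placed it 11th by rise among the 10611 scored genes. Among the 500 scored probe sets of closest mean level, 1 differed by as much in either direction, with an SD of 0.23 in log2 difference among them. The other Csrnp1 probe set, 1433000_at, lay at the lowest value in both groups, so the rise rests on a single probe set.

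Nr4a1, an orphan receptor studied for its roles in cell survival, T cell selection and metabolism, is measured by the single probe set 1416505_at. Its scaled intensity was 2869 on the J147 array and 1669 on the vehicle array, a log2 difference of 0.78. It was 24th by rise among the scored genes. Among its 500 nearest probe sets in level 1 differed by as much, and their SD was 0.21.

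Nr4a2 was measured by 6 probe sets, which moved both ways by small amounts. The one read for the gene, 1455034_at, had a scaled intensity of 2275 on the J147 array and 2214 on the vehicle array, a log2 difference of 0.039. Probe set 1433423_at had 1710 on the J147 array and 1570 on the vehicle array, with a log2 difference of 0.12, and 1447863_s_at had 213 on the J147 array and 193 on the vehicle array, with 0.14. Probe set 1450750_a_at ran the other way, with 421 on the J147 array and 470 on the vehicle array and a log2 difference of -0.16. Probe set 1450749_a_at had the same deposited value, 3.60, on both arrays, while 1433422_at lay at the lowest value in both groups. Each of these differences was smaller than the SD of 0.20 to 0.24 among the 500 nearest probe sets. The Nr4a2 window printed above has as many CRE half-sites as that of Nr4a1, and any link between half-sites and these differences was not tested.

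Nr4a3, the third receptor, had 3 probe sets, all at the lowest value on both arrays. This gives no level for its mRNA and does not show that it was absent. Csrnp3 likewise had 3 probe sets, all at that value on both arrays. Csrnp2 had 1 probe set, 1434532_at, with a scaled intensity of 2814 on the J147 array and 3068 on the vehicle array, a log2 difference of -0.12 against an SD of 0.19 among its neighbours.

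**Figure D2:**
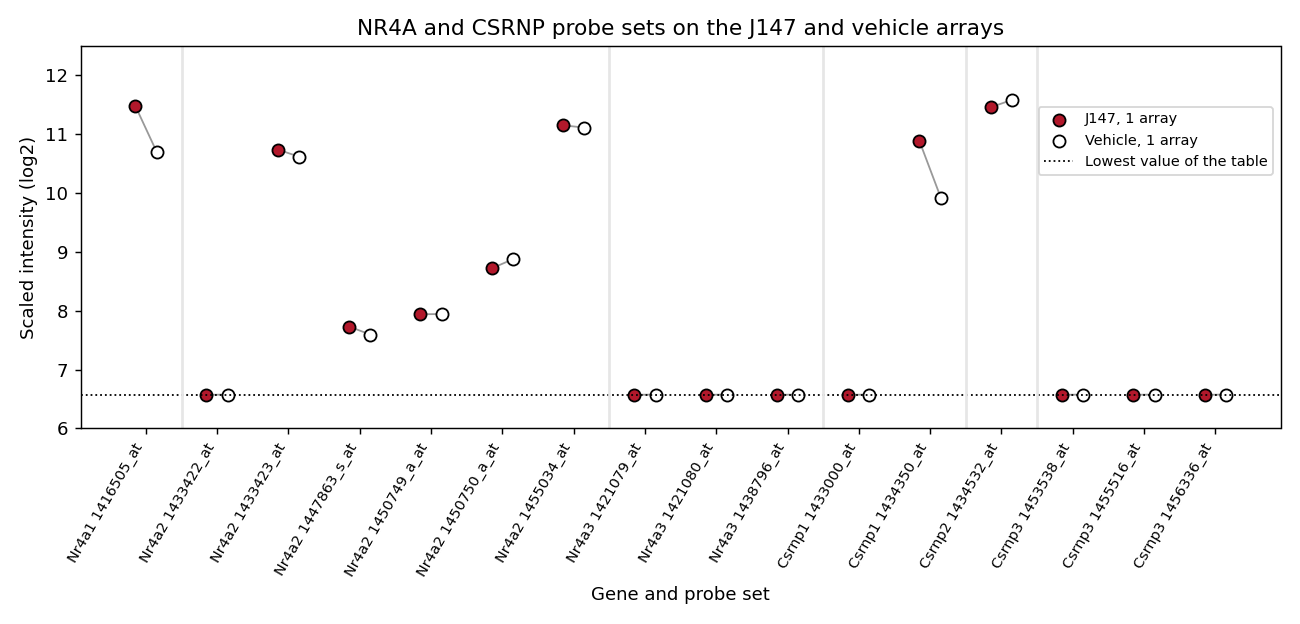
Scaled intensity on a log2 scale (vertical axis) of each of the 16 probe sets of the 6 genes (horizontal axis) on the J147 array (filled circles, left) and the vehicle array (open circles, right), 1 array each, with the lowest value as a dotted line. The grey joining lines are steepest for Nr4a1 and for Csrnp1 1434350_at, and 8 probe sets lie on the dotted line.

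**Figure D3:**
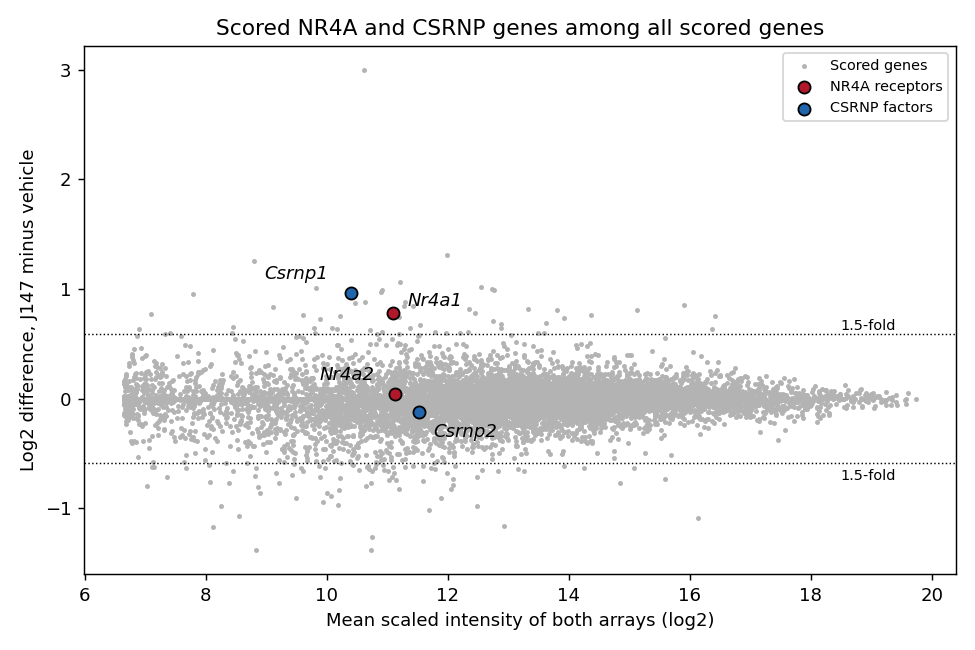
J147 minus vehicle, as a log2 difference (vertical axis), against the mean log2 scaled intensity of both arrays (horizontal axis) for the 10611 scored genes (grey points), with NR4A receptors in red and CSRNP factors in blue. Csrnp1 at 0.96 and Nr4a1 at 0.78 lie above the dotted 1.5-fold line, and Nr4a2 and Csrnp2 lie near 0.

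The genes whose pair of log2 values on the J147 and vehicle arrays lay closest to that of each raised member were taken by a distance rule. For Csrnp1 the nearest was Maff, a small MAF transcription factor that is itself an early response gene, with 1920 on the J147 array and 1048 on the vehicle array and a log2 difference of 0.87. The next were the uncharacterised 2700081O15Rik at 0.54 and the channel gene Trpc2 at 0.75, although the other scored probe set of Trpc2 did not differ between the arrays beyond the scaling. For Nr4a1 they were Itprip, which encodes a protein that interacts with the IP3 receptor, with a log2 difference of 0.74, Bambi, a pseudoreceptor that damps TGF-beta signals, at 0.54, and Spry2, a feedback inhibitor of receptor tyrosine kinase signalling, at 0.59. The distances, over 1 array per group, ran from 0.11 to 0.31 log2 units.

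Nr4a1 had the largest rise of the 21 scored nuclear receptors. Of the 46 other mouse nuclear receptors, 41 were annotated and 19 scored, and none of the 19 was 1.5-fold higher or lower with J147. Over all scored genes 0.556% were higher and 0.81% lower by as much, so a count of 0 says little. Among the 19, Rxrg had 100.5 on the J147 array and 100.8 on the vehicle array, and Nr3c2 had 112.6 and 113.0. Both lay close to the lowest value, so they give little reading of a change. The median log2 difference of the 19 was -0.0047, beside -0.0046 over all scored genes, the value of a probe set with identical deposited values on both arrays. The next in order were the REV-ERB receptors of the circadian clock. Nr1d1 had scaled intensities of 251 on the J147 array and 180 on the vehicle array, a log2 difference of 0.48, and Nr1d2 had 26285 on the J147 array and 20004 on the vehicle array, with 0.39. Nr4a2 was at place 5 of the 21 scored receptors. At the other end was Nr2c2, the orphan receptor TR4, at -0.29. Whether Nr4a1 differs from the other receptors beyond culture to culture spread cannot be tested with 1 array per group.

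Among other early response transcription factors, the differences of Nr4a1 and Csrnp1 lay below those of the largest EGR genes and beside those of the largest AP-1 genes. Of 5 scored EGR and NAB genes 2 were at least 1.5-fold higher, Egr3 with 4452 on the J147 array and 558 on the vehicle array and Egr1 with 6414 on the J147 array and 2580 on the vehicle array. Of 9 scored AP-1 and MAF genes 2 were at least 1.5-fold higher, Maff as given above and Fosl1 with 27385 on the J147 array and 16196 on the vehicle array, a log2 difference of 0.76. The second Fosl1 probe set had 0.94. Of the other scored genes of both lists, Egr2 had a log2 difference of 0.57, Junb 0.45, Mafk 0.39, Nab2 0.34, Mafg 0.18, Fosl2 0.029, Jund -0.0091, Nab1 -0.031 and Jun -0.27. Fos was close to the lowest value, with 111 on the J147 array and 125 on the vehicle array, and Egr4, Fosb and Atf3 were not scored. The medians were 0.57 for EGR and NAB genes and 0.18 for AP-1 and MAF genes. Beside these lists, 0.556% of all scored genes were at least 1.5-fold higher and 0.81% lower.

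The genes that work with the NR4A receptors all lay below 1.5-fold in either direction. All 11 annotated partners and coregulators were scored and none was 1.5-fold different, with a median log2 difference of -0.069. With 0.556% of all scored genes higher and 0.81% lower by as much, a count of 0 among 11 is no result about them. Rxrg, 1 of the 11, lay close to the lowest value. Rxra and Rxrb, the retinoid X receptors that pair with Nr4a1 and Nr4a2, had -0.00073 and -0.0046. Trim28, another coregulator of the list, had 0.012. The components Rcor1 and Kdm1a of the CoREST complex, through which Nr4a2 represses inflammatory genes, had -0.11 and -0.069. The largest differences were falls of small size, -0.31 for the acetyltransferase Ep300 and -0.25 for the coactivator Ncoa1, whose second scored probe set had -0.012.

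Of 24 scored regulators known to act upstream of Nr4a transcription, 0 were at least 1.5-fold higher and 1 was lower. The shares over all scored genes were 0.556% higher and 0.81% lower, so counts this small are no result about the list. The lower gene was Mef2c, an activity-dependent transcription factor, with 612 on the J147 array and 951 on the vehicle array by probe set 1421027_a_at, 1.55-fold lower. Its other 3 scored probe sets had log2 differences between -0.046 and -0.0046, so the 1.5-fold difference rests on 1 probe set. Of these 3, 1421028_a_at (100 with J147, 103 with vehicle) and 1451507_at (142 on both arrays) lay close to the lowest value. They give little reading of a change. The third, 1424852_at, had the same deposited value, 5.02, on both arrays. Mapk7, the kinase ERK5 that activates MEF2 factors, had the largest rise of the list at 0.36, and Srf had 0.24. Creb1, the factor that binds the CRE, was at -0.29 by the brightest of its 5 scored probe sets. The other Creb1 probe sets are not given here, so that value describes 1 probe set. Crtc1, Crtc2 and Crtc3, coactivators of CREB, were between -0.072 and -0.0047, each by its brightest probe set. These arrays measure mRNA and say nothing of the phosphorylation through which most of these proteins act.

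Genes that the NR4A receptors are known to activate in other tissues were mostly below the cut-off. Of 12 listed 10 were annotated and 3 scored, and none of the 3 was 1.5-fold different. By as much, 0.556% of all scored genes were higher and 0.81% lower, so the 0 says little. Akr1c18, a steroid dehydrogenase that Nr4a1 activates in the rat ovary, had 7683 on the J147 array and 7530 on the vehicle array. Slc18a2, the vesicular monoamine transporter, had 270 on the J147 array and 272 on the vehicle array, a log2 difference of -0.014. Star, which carries cholesterol into mitochondria, was close to the lowest value, with 114.1 on the J147 array and 114.5 on the vehicle array. Its log2 difference of -0.0046 is that of identical deposited values, so it cannot be read as an unchanged level. Th, Slc6a3, Ret and Pomc were not scored.

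In the AXIN and Wnt pathway, 13 of 18 annotated genes were scored and none passed 1.5-fold by the probe set read for the gene. Of all scored genes 0.556% passed it upward and 0.81% downward, so that count says little. Axin1, after which Csrnp1 had its older name, had the largest rise of the list, with 12200 on the J147 array and 9775 on the vehicle array, a log2 difference of 0.32. Its second probe set, 1426967_at, had 668 on the J147 array and 398 on the vehicle array, a log2 difference of 0.75, so both Axin1 probe sets ran upward by unequal amounts. Dvl2, a cytoplasmic transducer of Wnt signals, was at -0.32, and Axin2, the usual target gene of the pathway, was not scored. The median of the list was -0.0046, and that of 8 scored housekeeping genes was -0.0017.

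**Figure D4:**
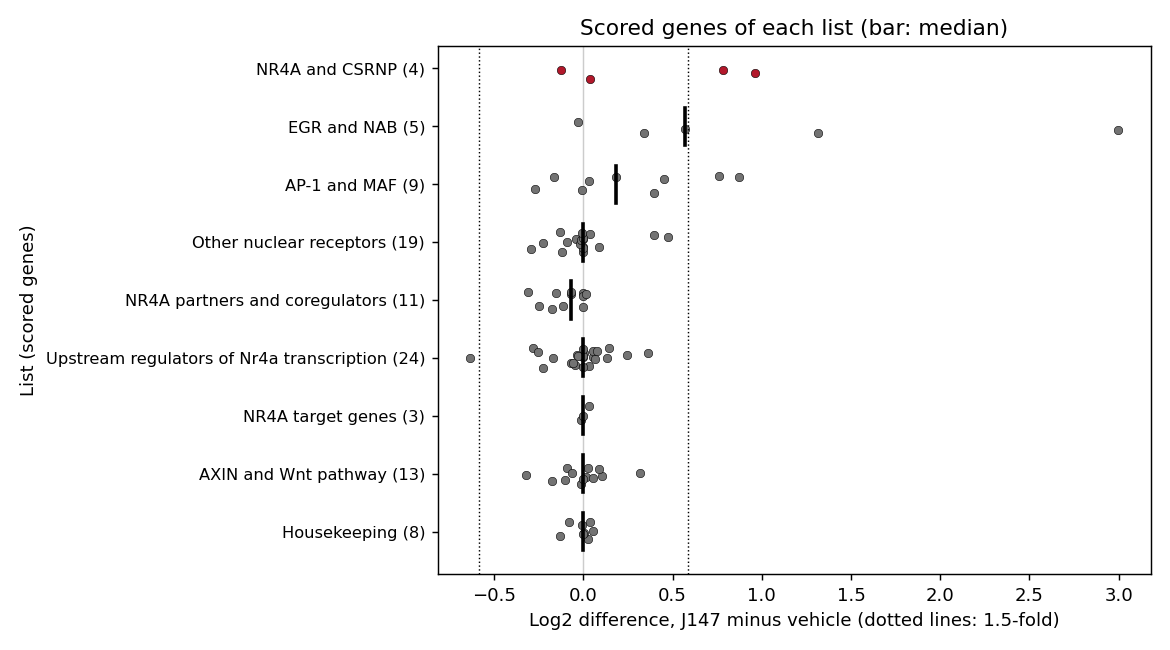
J147 minus vehicle, as a log2 difference (horizontal axis), for the scored genes (points, scattered vertically for sight) of the NR4A and CSRNP genes (red) and of 8 other lists (grey), with the number of scored genes in parentheses, medians of the grey lists as black bars and 1.5-fold as dotted lines. Nr4a1 and Csrnp1 lie right of the 1.5-fold line, as do 2 EGR and 2 AP-1 genes, while no other list has a gene there.

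The windows before the start sites were also read against the arrays. Of 44 genes with a window of at least 4 CRE half-sites, 36 were scored, and Nr4a1 was the only one at least 1.5-fold higher with J147, while 0 were lower. Their median log2 difference was -0.0046. Of the 2747 scored genes with at least 1 half-site in a window, 13 (0.473%) were at least 1.5-fold higher and 26 (0.946%) lower. Of the 732 with at least 2, 6 (0.82%) were higher, Csrnp1 and Nr4a1 among them, and 5 (0.683%) lower. Over all 8678 scored genes with a window these counts were 40 (0.461%) and 67 (0.772%). The next largest rise in the group with at least 4 was Coq10b, a coenzyme Q binding protein, at 0.50. These counts include the members, whose values were known when the motif was chosen, so they are a description.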

How the data were processed

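RNA from HT22 cells treated with J147 or vehicle was hybridized to 1 array each. Probe sets were summarised by the authors with gcRMA, run in R, which corrects background by probe GC content, and log2 intensities were deposited for 45101 probe sets, 64 of them controls. Affymetrix Expression Console 1.0 is listed in the submitters' processing notes. The gcRMA version and a genome build are not given in the sources used here. gcRMA pulls dim probe sets to a common lowest value, so low expression cannot be read.

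Each array was scaled to a median of 100 over the 45037 other probe sets. Of these 34945 have 1 gene symbol in the platform annotation, 932 several and 9160 none, and symbols were updated through Entrez numbers to RefSeq (GRCm38.p6). Genes that the annotation used does not list, some list members among them, were not analysed here.

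The members and lists were chosen with earlier results of these data known, as was the 1.5-fold threshold. Named genes were all 6 members, from each list up to 4 genes that passed 1.5-fold or, failing any, the 2 that differed most, and the 3 genes nearest to each raised member. Members of lists named beyond that, and Coq10b, were picked after their values were seen. Motifs were also chosen after the arrays were seen. Alternatives were the deposited scale, quantile normalization, a lowess curve (span 0.3), a pseudocount of 50, other ways to combine probe sets, no filter or a cut-off of 200, and a 1.25-fold threshold. Python 3.11.15, numpy 2.4.6, pandas 2.3.3, statsmodels 0.14.6 and matplotlib 3.10.9 were used, and the scaling and differences were tested on simulated data.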

Additional observations from a re-analysis of the deposited data

How the results depend on the processing

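The log2 difference of Csrnp1 ranged from 0.93 to 0.99, that of Nr4a1 from 0.76 to 0.81, that of Nr4a2 from 0.027 to 0.067 and that of Csrnp2 from -0.12 to -0.098 over the main setting and the 6 alternatives of scaling, pseudocount and probe set choice. The 2 members at least 1.5-fold higher and the 0 lower stayed at those counts under all 9 alternatives. Under the 8 that kept the 2-fold threshold, 0 reached it. Most of these alternatives could not have lowered the count of 2. Nr4a1 and Csrnp1 have 1 scored probe set each, so the other probe set choices returned 0.78 and 0.96 unchanged. Both genes lie well above the stricter cut-off, so no change of filter could drop them. A looser threshold cannot remove a gene. For this count, only the alternatives of scaling and pseudocount were a check. Over the 8 comparison lists, 4 genes were at least 1.5-fold higher and 1 lower; at the looser threshold 11 were higher and 2 lower, by construction. The 1 lower, Mef2c, gave 0 when its scored probe sets were averaged, and 0 without probe sets of the suffixes _x_at, _s_at and _a_at, which leaves out the one read for the gene. Of 229 values under an alternative, 218 stayed close, meaning within 1 SD of the 500 neighbours or within 1.5 times for counts, 11 moved and 0 reversed. Many of the 229 are list counts of 0 that stayed at 0, and the deposited scale shifts every difference by the same small amount. The 218 are therefore a tally and no measure of stability. No paired analysis was possible because there is 1 array per group. Of the 16 member probe sets 8 lie at the lowest value, where no alternative gives a difference.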
